A study of Oryctolagus cuniculus with 2 samples.

Results

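Clusters 12 and 15 are the amacrine-labelled clusters whose own marker scores put another cell type first. They hold 207 of the 6542 nuclei deposited from rabbit retina, or 20.1% of the 1029 nuclei labelled amacrine. Cluster 12 has 118 nuclei, of which 70 came from the wild-type library and 48 from the CLRN1 knockout library. Cluster 15 has 89 nuclei, 49 wild-type and 40 knockout. The members were chosen by module scores. The authors gave every nucleus a cell type, a cluster number and 9 module scores, each of which compares the mean level of a short gene list with that of control genes. Among the 11 amacrine clusters, these are the only ones whose highest median score is not the amacrine score: the horizontal score led in cluster 12 and the rod score in cluster 15.

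The animals were wild-type rabbits and rabbits with a knockout of CLRN1, the gene of the membrane protein clarin-1, whose loss causes a form of Usher syndrome. All were 10 months old, and a 5 mm punch of the visual streak, taken 2 to 3 mm ventral of the medullary rays, was frozen from each. Nuclei of 3 animals were pooled into 1 droplet library per genotype. No test was therefore made between genotypes, and a difference between genotypes cannot be told apart from one between pools of animals or between libraries.

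Amacrine cells are inhibitory interneurons of the inner retina. They contact bipolar cells, ganglion cells and one another, and they form the most diverse class of retinal neuron, most of them using GABA or glycine as transmitter. Horizontal cells are inhibitory interneurons of the outer retina that contact photoreceptor terminals and share part of their developmental origin with amacrine cells. Rods are the photoreceptors of dim light and the most abundant cells of the rabbit retina, and their transcripts are often found as free RNA in droplets of retinal nuclei.

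Transcripts were counted as unique molecular identifiers (UMIs), with 6916018 over the 3484 wild-type nuclei and 8233524 over the 3058 knockout nuclei. The median nucleus had 1175.5 UMIs in the wild-type library and 1552.5 in the knockout library. Counts are held in a matrix of 15806 rows, one per gene, which carry numbers in place of names. Nuclei were joined to it by their pair of UMI total and number of detected rows where that pair was unique, which placed 6315 nuclei, including all 118 of cluster 12 and 88 of the 89 of cluster 15. The libraries shared 5 cell barcodes, none of them in a member. Intervals printed below are 95% intervals that cover counting error only. Because clusters and labels were made from the same counts, every value that sets a cluster against others is a description.

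Clusters 12 and 15 were chosen because their leading score is not the amacrine score, so the scores given here describe that choice. In the other 9 amacrine clusters, the amacrine score led the next score by 0.13 to 0.97. The smallest of these leads, 0.13 in cluster 18, is the nearest case outside the rule. In cluster 12 the median horizontal score of 0.30 exceeded the amacrine score of 0.22 by 0.076. In cluster 15 the median rod score of 0.37 exceeded the amacrine score of 0.32 by 0.050. Both clusters thus carry an amacrine score well above 0. Neither carries the competing score at the level of the highest-scoring clusters of that label: the median horizontal score was 1.61 in horizontal cluster 20, and the median rod score was 1.34 in rod cluster 0 and 1.41 in rod cluster 1. Some clusters of those labels scored lower than clusters 12 and 15. The median horizontal score was 0.20 and 0.19 in horizontal-labelled clusters 19 and 24, and the median rod score was -0.017, 0.15 and 0.039 in rod-labelled clusters 9, 10 and 16.

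**Figure D1:**
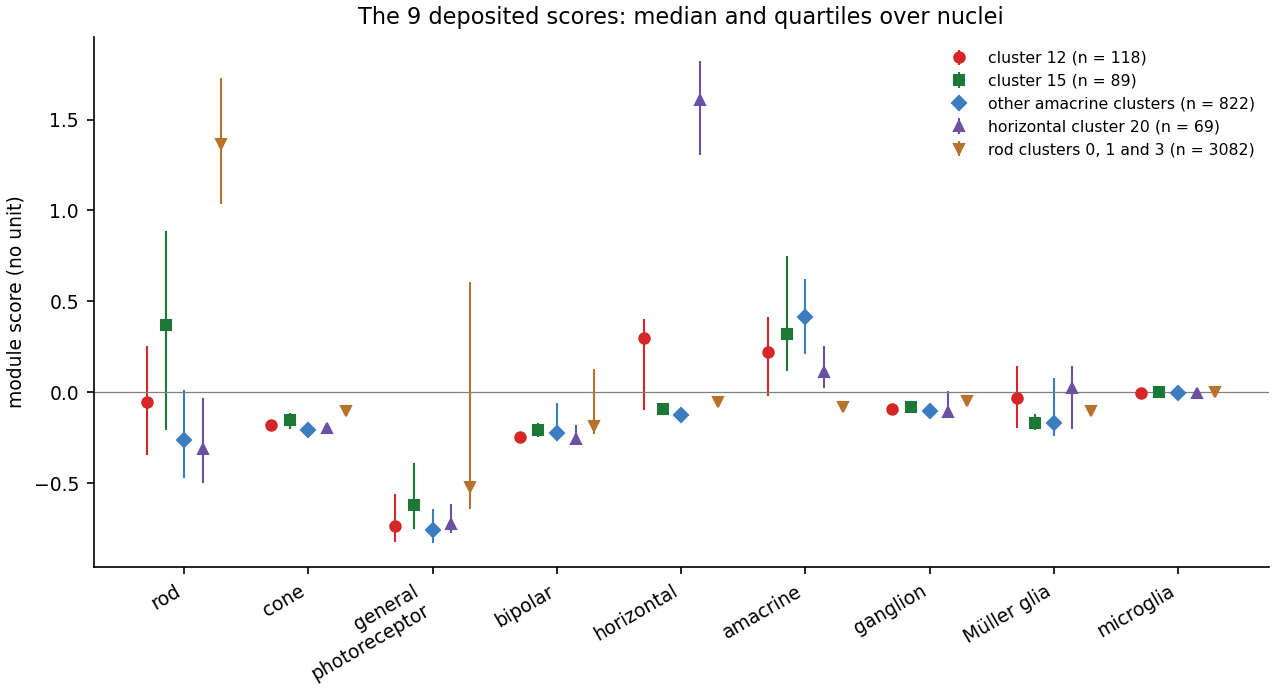
The 9 deposited module scores (no unit) in cluster 12, cluster 15, the other amacrine clusters together, horizontal cluster 20 and rod clusters 0, 1 and 3. Symbols are medians over nuclei and bars run from the lower to the upper quartile. Cluster 12 lies between horizontal cluster 20 and the other amacrine clusters in the horizontal score, and cluster 15 lies between the rods and the other amacrine clusters in the rod score.

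Scores depend on depth, and cluster 15 was the shallowest of the amacrine clusters. The median nucleus had 2344 UMIs in cluster 12 (2178 to 2522) and 1317.5 detected genes. In cluster 15 it had 1662 UMIs (1504 to 2016) and 1044 genes, the lowest of the 11 amacrine clusters. The medians of the other 9 ran from 2215.5 to 3985 UMIs, so cluster 12 lay near the low end of their range and inside it. Mitochondrial transcripts made up a median of 0.065% of UMIs in cluster 12, 0.183% in cluster 15 and 0.15% in the other amacrine clusters. The medians of clusters 12 and 15 lay inside the range of the other 9 amacrine clusters, 0.061% to 0.236%. More than 1% was reached by 2 of 118 nuclei in cluster 12 (1.69%) and 9 of 89 in cluster 15 (10.1%, 4.73% to 18.3%). In the other amacrine clusters it was 48 of 822 (5.84%, 4.34% to 7.67%), and over all nuclei 7.77%.

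Scores were therefore compared within bins of UMIs per nucleus. At matched UMIs, the horizontal score of cluster 12 was 0.41 above that of the other amacrine clusters, close to the difference of 0.42 without matching, and it was higher in 2 of 2 bins. Against horizontal-labelled clusters 19 and 24 together, its horizontal score was 0.35 compared with -0.080 in nuclei with 1000 to under 2000 UMIs, and 0.272 compared with 0.269 with 2000 to under 4000. Against the other amacrine clusters, its amacrine score was 0.13 lower and its rod score 0.05 higher, this last down from 0.21 without matching. Its Müller glia score was 0.16 higher, by 0.014 in the lower bin and 0.23 in the upper, and 72 of the 95 UMIs of that list in cluster 12 came from 1 row. A wider set of 125 rows, 4-fold or more higher in Müller glia cluster 8 than in the other reference types, lay the other way, at 0.289% of the UMIs of cluster 12 against 0.392% to 0.624% across the other 9 amacrine clusters. The rod score of cluster 15 was 0.43 above the other amacrine clusters at matched UMIs, in 3 of 3 bins, against 0.63 without matching. Its amacrine score was 0.06 higher at matched UMIs and 0.09 lower without matching, so its direction rests on how depth is treated. The other scores of cluster 15 lay within 0.02 of the other amacrine clusters once UMIs were matched, the general photoreceptor score (0.017 higher) and the cone score (0.009 higher) included.

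Single nuclei showed how the medians arise. In cluster 12, 56 of 118 nuclei had both the amacrine and the horizontal score above 0, 32 had only the amacrine score above 0, 19 only the horizontal score and 11 neither. The highest of the 9 scores was the horizontal one in 43 nuclei, the amacrine one in 36, the rod one in 23 and the Müller glia one in 9. In cluster 15, 40 of 89 nuclei had both the amacrine and the rod score above 0, 28 only the amacrine score, 19 only the rod score and 2 neither. The rod score was the highest in 39 nuclei and the amacrine score in 38. Rod scores of cluster 15 were spread widely, from -0.76 to 1.87 with quartiles at -0.21 and 0.89, while the horizontal scores of cluster 12 fell into a group below 0 and a group above it. In cluster 12, nuclei with any UMI of the horizontal gene list held a median of 1. These groups can thus differ by 1 UMI per nucleus and were not shown to be separate kinds of nucleus.

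**Figure D2:**
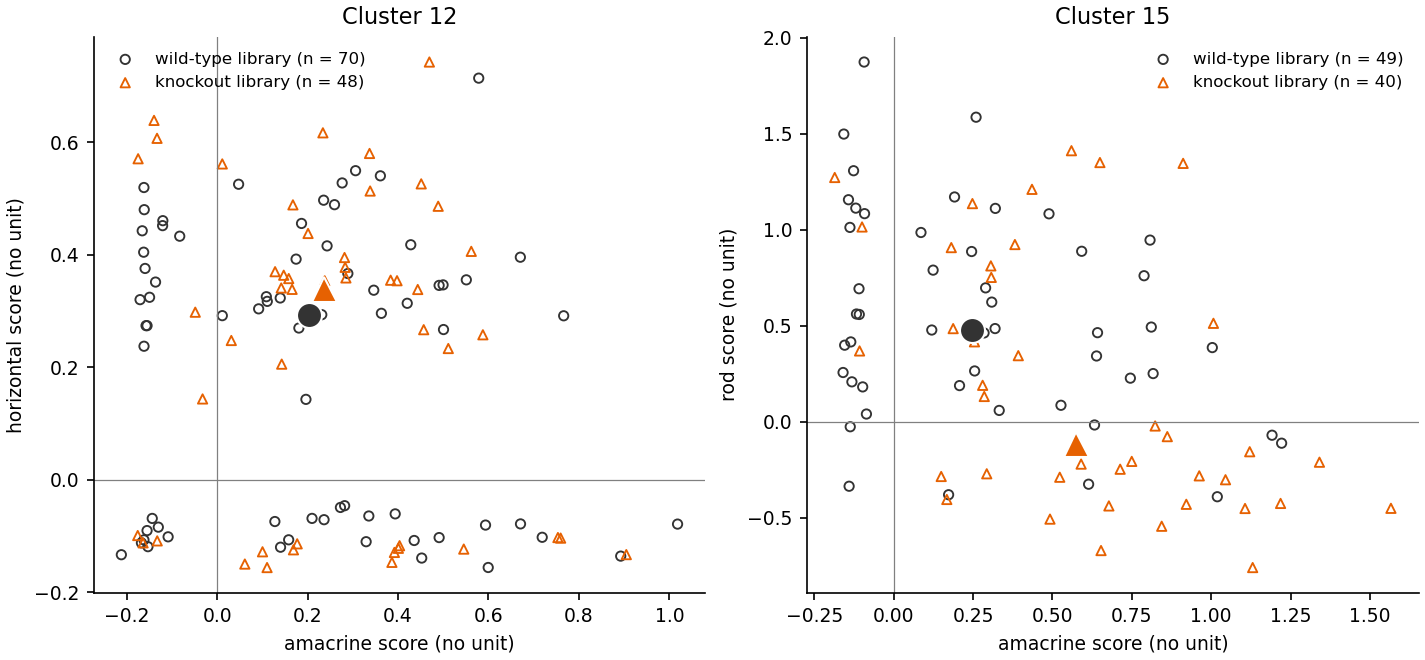
Amacrine score (x axis, no unit) against the competing score (y axis, no unit) for each nucleus, the horizontal score in cluster 12 and the rod score in cluster 15. Circles are wild-type and triangles knockout nuclei, and filled symbols are the medians of each library. In cluster 15 the wild-type median lies at a rod score of 0.48 and the knockout median at -0.12. In cluster 12 the medians of the libraries lie close together, at horizontal scores of 0.29 and 0.34.

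The gene lists behind the scores are not named in the files, but the rows of each list could be found from the counts. A sum of a few rows, less a baseline, reproduced each deposited score with equal weights per row. This gave 4 rows for the horizontal score, 6 for the amacrine score and 6 for the rod score. Rows of a list are called here by their order, since the files do not pair them with gene names. The row levels pool both libraries.

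The horizontal score of cluster 12 rested on a single row. Its first row held 142 of the 143 UMIs of the list, the third row held 1, and rows 2 and 4 held none. Levels are given as counts scaled to 1000000 UMIs (CPM). The limit that a count of 0 allows in cluster 12 is 10.4 CPM. Horizontal cluster 20 spread its 787 UMIs over all the rows, with 225, 230, 237 and 95. The first row stood at 494 CPM in cluster 12 (416 to 582), 767 in cluster 20 and 22.2 in the other amacrine clusters. It was found in 63.6% of cluster 12 nuclei, 88.4% of cluster 20 nuclei, 2.70% of other amacrine nuclei (median 3041 UMIs) and 0.624% of nuclei in rod clusters 0, 1 and 3 (median 806 UMIs). With each nucleus thinned to 1000 UMIs, leaving out shallower ones (114, 68, 802 and 847 nuclei kept), these shares were 37.6%, 50.4%, 1.30% and 0.902%. The first row was not confined to horizontal-labelled clusters and cluster 12. Rod cluster 2 held 354 UMIs of it among 4454346, and ganglion cluster 7 held 64 among 1552927. These were not the highest levels of the first row outside the horizontal-labelled clusters and cluster 12. In at least 1 reference type, described below with the wider sets, the first row stood less than 4-fold below cluster 20. The level in that reference is not given here. Row 2, at 784 CPM in cluster 20, and row 4, at 324, were thus at least 75-fold and at least 31-fold lower in cluster 12. The horizontal-labelled clusters 19 and 24 were closer to cluster 12 in this respect. In them the first row held 68 of 72 and 28 of 38 list UMIs.

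The amacrine list was also partly filled in cluster 12. It held 203 UMIs, or 706 CPM (612 to 810), against 1293 CPM in the other amacrine clusters and 508 in horizontal cluster 20. Rows 1, 2 and 5 had 50, 98 and 51 UMIs, rows 3 and 4 had 2 each and row 6 had none. Rows 1 and 2 were also present in horizontal cluster 20, at 106 and 402 CPM against 174 and 341 in cluster 12. Row 5 was not: it stood at 177 CPM in cluster 12 (132 to 233), the second highest of the 26 clusters after 182 in amacrine cluster 17, while cluster 20 had no UMI of it. Rows 3 and 4 stood at 241 and 156 CPM in the other amacrine clusters and at 6.96 each in cluster 12. At least 1 UMI of both lists was found in 58 of the 118 nuclei, of the amacrine list alone in 32, of the horizontal list alone in 17 and of neither in 11.

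Cluster 15 carried most of the amacrine list at levels typical of amacrine clusters. It held 232 UMIs, or 1374 CPM (1202 to 1562). Row 2 stood at 580 CPM, row 3 at 320 and row 4 at 326 (245 to 424). The last was the highest of all 26 clusters, with 305 in cluster 23 inside its interval. Row 1 was the lowest of the 11 amacrine clusters at 136 CPM. The horizontal list was nearly absent, with 2 UMIs in all.

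Rod rows were raised together in cluster 15. The list stood at 5559 CPM (5209 to 5927), compared with 2879 in cluster 12, 1893 in the other amacrine clusters, 1575 in horizontal cluster 20, 907 in ganglion cluster 7 and 16282 in rod clusters 0, 1 and 3. The level of cluster 15 pools unlike parts, described below with the embedding. It was 9478 CPM in 25 nuclei at the lower end of the cluster and 3181 CPM in 61 at its upper end. Cluster 15 ranked first of the 11 amacrine clusters for each of the 6 rod rows. Rod RNA was detected almost everywhere: 100% of cluster 15 nuclei, 98.5% of other amacrine nuclei and 98.6% of ganglion nuclei (median 6458 UMIs) had a rod UMI, so presence alone does not set cluster 15 apart. Levels of single rows did. The fifth row is the only row of the rod list among the 10 most raised rows of cluster 15. It stood at 545 CPM in cluster 15, 191 in cluster 12, 54.2 in the other amacrine clusters and 16.7 in ganglion cluster 7. It was found in 37.5% of cluster 15 nuclei, 10.9% of other amacrine and 8.29% of ganglion nuclei, although the last 2 sets were deeper. Thinned to 1000 UMIs, with 76, 802 and 217 nuclei kept, the shares were 31.7%, 4.96% and 1.95%.

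The make-up of the rod UMIs also differed. The first row made up 54.7% of rod UMIs in cluster 15, 52.2% in rod clusters 0, 1 and 3, and 67.4% in the other amacrine clusters. The fifth made up 9.80% in cluster 15, 8.83% in the rods and 2.86% in the other amacrine clusters. Cluster 12, with 58.1% for the first row and 6.64% for the fifth, lay between the rods and the other amacrine clusters. A shift of this kind was thus not particular to cluster 15. All 88 nuclei of cluster 15 in the matrix had a rod UMI, and 68 of them had an amacrine UMI as well. No doublet caller was run, and the part of free RNA or of a second nucleus in a droplet in these values was not tested.

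**Figure D3:**
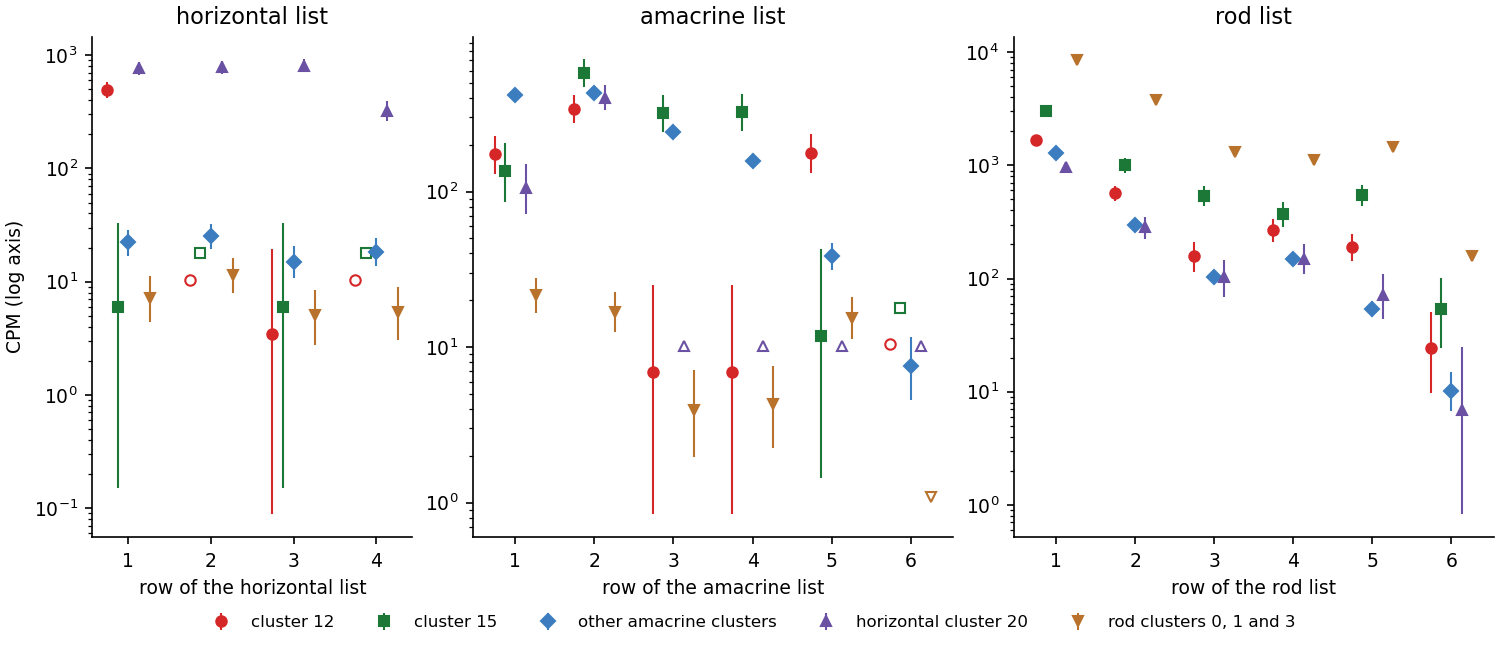
Level of each row of the horizontal, amacrine and rod lists in CPM (log axis), from counts summed over the nuclei of a set, with 95% Poisson intervals. Open symbols stand at the limit of 3 counts for rows with no UMI. Cluster 12 matches horizontal cluster 20 within a factor of 2 in the first horizontal row and has at most 1 UMI in the others. Cluster 15 lies between the rods and the other amacrine clusters in every rod row.

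Wider sets of rows gave a second view of the label. Rows were taken that stood 4-fold or more above every other reference in horizontal cluster 20 (45 rows) or in the other amacrine clusters together (51 rows). The references were the rod, cone, bipolar, Müller glia, ganglion, horizontal and amacrine clusters, and clusters 12 and 15 took no part in choosing the rows. The horizontal rows made up 0.538% of the UMIs of cluster 12 (0.511% to 0.565%), against 5.27% in cluster 20 and 0.299% to 0.551% across the other 9 amacrine clusters. By this measure cluster 12 lay inside the amacrine range. The measure leaves out the first row of the horizontal list, which held 142 of the 143 list UMIs of cluster 12. Only 3 of the 4 list rows are among the 45, since the first was less than 4-fold higher in cluster 20 than in at least 1 other reference. The place of cluster 12 with that row added was not tested. The amacrine rows made up 0.403% of the UMIs of cluster 12 (0.380% to 0.427%), below the range of 0.744% to 3.34% of the other 9 clusters, on which these rows were chosen, and above the 0.066% of cluster 20. Rod-labelled cluster 9 held 0.392%. In cluster 15 the amacrine rows made up 1.10% (1.05% to 1.16%), inside the amacrine range. Rod clusters 0, 1 and 3 held 0.106% or less and rod cluster 2 held 0.231%. The range did not separate the labels fully, since horizontal-labelled cluster 19 held 0.807%, inside it, and cluster 24 held 0.471%, above cluster 12. The horizontal rows made up 0.214% in cluster 15.

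**Figure D4:**
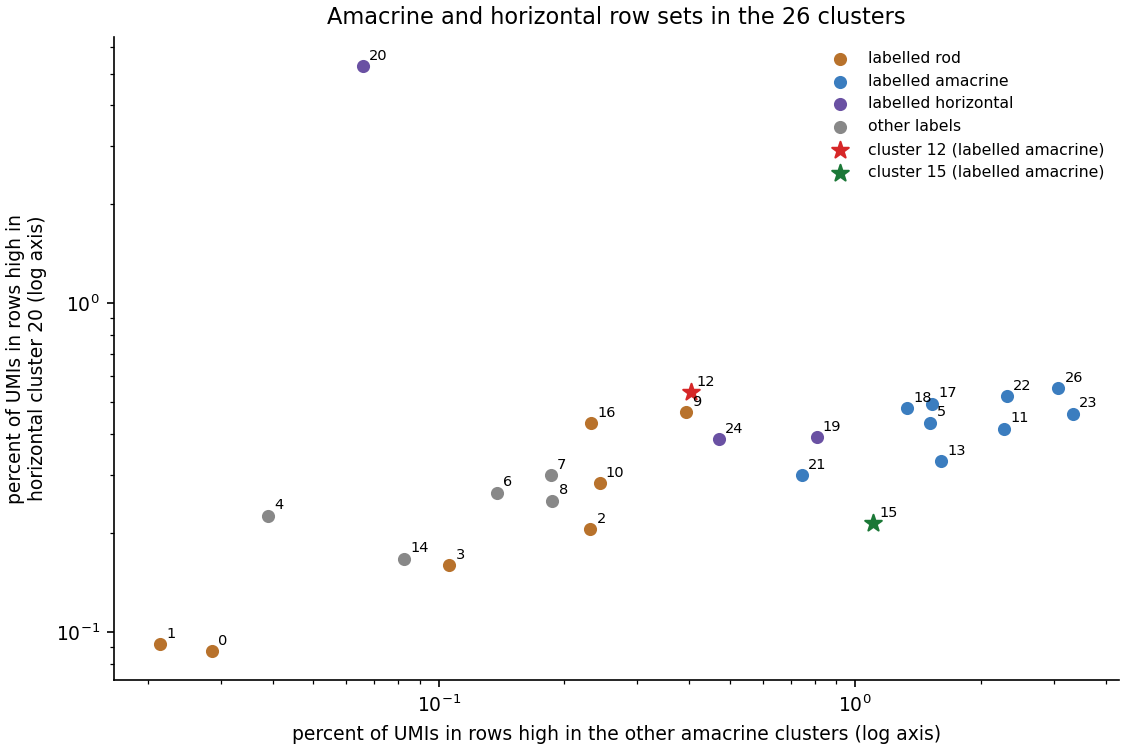
Percent of a cluster's UMIs in rows high in the other amacrine clusters (x axis, log) and in rows high in horizontal cluster 20 (y axis, log), for the 26 clusters, with cluster numbers beside the points. Cluster 15 lies among the amacrine-labelled clusters on the x axis, as does horizontal-labelled cluster 19. Cluster 12 lies below the amacrine-labelled clusters there, next to rod-labelled cluster 9. On the y axis it lies beside the amacrine clusters and far below cluster 20. The rows of the y axis leave out the first row of the horizontal list.

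Against the other amacrine clusters, 346 of 6723 rows (5.15%) were 2-fold or more higher in cluster 12 and 883 (13.1%) 2-fold or more lower. In cluster 15, 387 of 6629 rows (5.84%) were higher and 852 (12.9%) lower. The higher rows of cluster 12 were drawn from several reference types. Of them, 22.8% had their highest reference level in horizontal cluster 20, against 12.3% of all rows compared, and 22.3% in rods, against 22.5%. The higher rows of cluster 15 were mostly photoreceptor rows: 49.1% were highest in rods, against 22.6% of all rows compared, and 22.0% in cones, against 12.9%. Of the lower rows, 41.1% in cluster 12 and 37.6% in cluster 15 were highest in the other amacrine clusters, against 18.0% and 18.1% of all rows compared. Taking rows by their ratio to the other amacrine clusters by itself raises this share among lower rows and reduces it among higher rows.

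Cluster 12 had rows of its own. Of its 10 most raised rows, 7 were higher in cluster 12 than in any other of the 26 clusters. The most raised, row 6055, had 119 UMIs in 55.1% of the nuclei, or 414 CPM (343 to 495). It had 1 UMI in all other amacrine nuclei together, and the next highest cluster, 16, stood at 39.6 CPM. Another of the 10, chosen for its level after the values were seen, was found in 82.2% of cluster 12 nuclei at 796 CPM. It stood at 258 in cluster 17, the next highest, at 40.9 in horizontal cluster 20 and at no more than 52.3 in rod clusters 0, 1, 2 and 3. In all, 33 of 2899 rows (1.14%) stood 4-fold or more above all 7 references in cluster 12, and 5 of 1859 (0.269%) in cluster 15. The share in the other 9 amacrine clusters ran from 0.243% to 2.44%. With all sums thinned to the same 82602 UMIs, 19 of 824 rows (2.31%) passed in cluster 12 and 6 of 851 (0.705%) in cluster 15. The thinned shares of the other 9 amacrine clusters ran from 0.5% to 5.28%, so both clusters lay inside their range. The most lowered row of cluster 12, row 3957, had 2 UMIs there and 4496 in the other amacrine clusters, where 54.4% of nuclei carried it.

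In cluster 15, 3 of the 10 most raised rows were highest in the cluster itself and 6 in rod or cone clusters. The most raised, row 3654, was found in 45.5% of the nuclei at 361 CPM (276 to 464). It was found in 3.55% of other amacrine nuclei and in 0.0347% of nuclei in rod clusters 0, 1 and 3. The next highest cluster, horizontal-labelled cluster 24, stood at 303 CPM, inside that interval, so this row was not particular to cluster 15. The strongest, singled out after its values were seen, was found in 87 of the 88 nuclei at 5814 CPM. It was thus near universal in the cluster, where it was highest, but it was not particular to it. It stood at 4208 and 2482 in horizontal-labelled clusters 19 and 24, 2563 in cluster 12, 1574 in ganglion cluster 7 and 635 in the other amacrine clusters together. Rod-labelled clusters differed widely: cluster 9 had 2697 CPM, with the row in 93.8% of its nuclei, cluster 2 had 467, and clusters 0, 1 and 3 had no more than 127. The most lowered row, row 11187, had 1 UMI in cluster 15 and 6253 in the other amacrine clusters.

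By whole profile without centring of rows, cluster 12 was closer to rod-labelled clusters 9 and 2 and amacrine cluster 17 than to horizontal cluster 20. The log2 CPM profile of its summed counts over 10367 rows correlated most with rod-labelled cluster 9 (r = 0.840), then with rod-labelled cluster 2 (0.838) and amacrine cluster 17 (0.828), and horizontal cluster 20 came in place 10 (0.794). These correlations are across rows, which are not independent, and the summed depth of the partner enters them. Cluster 2 has the highest sum, 4454346 UMIs. With all sums thinned to 82602 UMIs, amacrine cluster 17 came first (0.766). Cluster 20 moved to second place, after cluster 17, when each row was centred over the clusters, and the correlations were then low (0.18 for cluster 17). Cluster 15 correlated most with rod-labelled cluster 2 (0.878), then with bipolar cluster 6 (0.840) and amacrine cluster 5 (0.838). Cluster 20 lay in place 22. With thinned sums cluster 2 also came first (0.790), and cluster 20 lay in place 23. When each row was centred over the clusters, the closest to cluster 15 were rod clusters 2 (0.166), 1 (0.131) and 0 (0.126) and cone cluster 4 (0.123). The highest of the other amacrine clusters was then cluster 17 (0.042), and cluster 5 stood at -0.034.

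In the authors' embedding each cluster formed an island. Nuclei of cluster 12 lay together except for 2 wild-type nuclei that lay at the edge of the main rod mass, and among the 30 nearest neighbours of a member 98.1% belonged to the cluster. Its nearest outside nuclei were of rod cluster 2 (53.0% of 30) and amacrine cluster 21 (42.0%), and none was labelled horizontal. Shares of neighbours, here and below, count an outside nucleus anew for every member it lies near. They can thus rest on few nuclei. With 10 neighbours none was amacrine, and with 100 neighbours 57.8% were. In 30 principal components of the counts, 54.4% of its outside neighbours belonged to rod-labelled cluster 9 and 13.1% to cluster 2. Horizontal-labelled cluster 19 made up 11.1%, amacrine cluster 5 11.0% and cluster 20 none. Of all nuclei outside cluster 12, clusters 9, 2, 19 and 5 held 2.86%, 13.1%, 1.11% and 3.97%. Cluster 2 was thus no more frequent among the neighbours than among all outside nuclei. Cluster 9, with 180 nuclei, is itself one of the few clusters whose label and scores disagree. Its median rod score was -0.017 and its highest median score, the microglia one, was 0.014 above the next, so no score stood out there.

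Cluster 15 formed an island of 87 nuclei, 47 wild-type and 40 knockout, and its other 2 nuclei, both wild-type, lay far from it and from each other. The cluster lay apart from the rest, with a median distance of 3.70 embedding units to the nearest outside nucleus against 0.641 for cluster 12. Its outside neighbours were of amacrine cluster 5 (74.2%) and rod clusters 3 (17.1%) and 2 (7.64%). In principal components they were of amacrine cluster 5 (60.6%) and rod cluster 2 (19.1%). Of all nuclei outside cluster 15, these clusters held 3.95% and 13.0%.

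**Figure D5:**
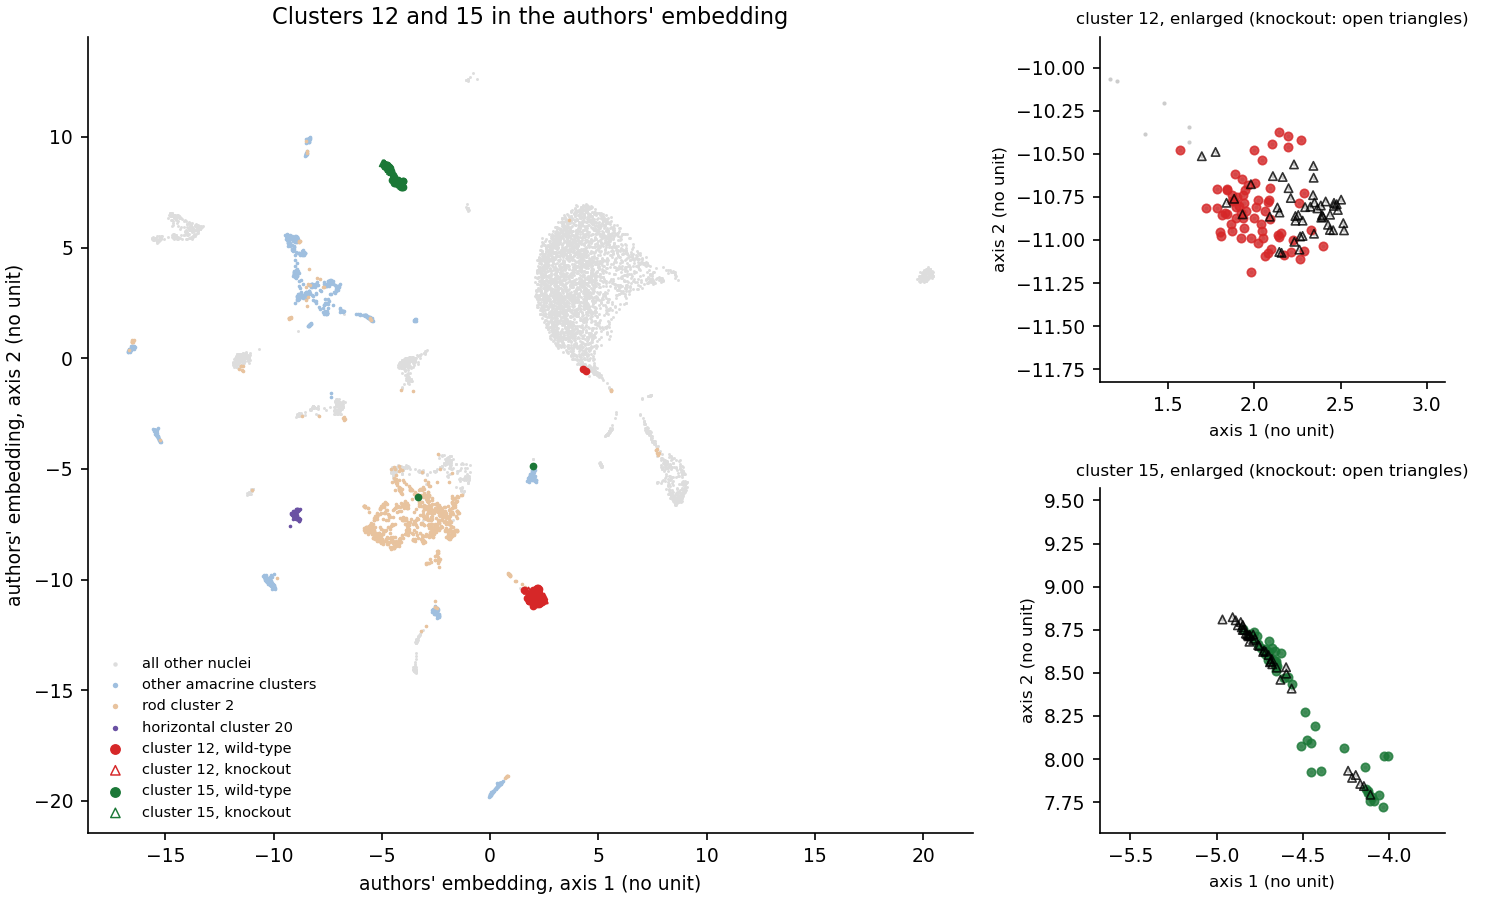
The authors' embedding of all nuclei (both axes without unit), with cluster 12 in red and cluster 15 in green. The right-hand panels enlarge both islands, with wild-type nuclei as filled circles and knockout nuclei as open triangles. Cluster 15 has 62 nuclei at its upper end and 25 at its lower end. The knockout nuclei of cluster 12 lie to the right of the wild-type nuclei on axis 1, with medians of 2.29 and 2.00.

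The island of cluster 15 had an upper and a lower end, with a gap near 8.3 on the second axis. This division was drawn after the embedding was seen. The upper end held 62 nuclei with a median rod score of 0.049 and a median amacrine score of 0.56. The lower end held 25 nuclei with a median rod score of 1.01, above 0 in all 25, and a median amacrine score of 0.19, above 0 in 15. Summed rod rows stood at 3181 CPM in the upper end and 9478 in the lower end, and summed amacrine rows at 1801 and 671. The strongest row of the cluster was found in every nucleus of both ends, at 8153 CPM in the upper and 2030 in the lower end. The level in the lower end was below that in clusters 9, 12, 19 and 24. Nuclei of the lower end had a median of 2153 UMIs and 0.048% mitochondrial UMIs, against 1544 and 0.300% in the upper end. In principal components, most neighbours were rods for 21 of the 25 lower-end nuclei and for 2 of the 61 upper-end nuclei in the matrix. The values given above for single rod rows, the photoreceptor share of raised rows and the whole profile of cluster 15 pool both ends. How far they rest on the lower end was not tested.

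The shares of nuclei in each cluster differed between libraries by less than their intervals. Cluster 12 made up 2.01% of wild-type nuclei (1.57% to 2.53%) and 1.57% of knockout nuclei (1.16% to 2.08%), a log2 ratio of -0.36. Cluster 15 made up 1.41% (1.04% to 1.86%) and 1.31% (0.936% to 1.78%), a log2 ratio of -0.10. The intervals overlapped for both. Over nuclei other than rods the log2 ratios were -0.22 and 0.03.

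Within cluster 15 the libraries differed in score. The median rod score was 0.48 in wild-type nuclei (0.26 to 0.70) and -0.12 in knockout nuclei (-0.28 to 0.42), and the median amacrine score was 0.25 (-0.09 to 0.32) and 0.58 (0.31 to 0.82). At matched UMIs the knockout rod score was 0.87 lower and the amacrine score 0.45 higher, in 2 of 2 bins each. With 1000 to under 2000 UMIs the rod scores were 0.36 in 26 wild-type and -0.28 in 14 knockout nuclei. With 2000 to under 4000 UMIs they were 0.89 in 14 and -0.21 in 19. Of the wild-type nuclei, 25 had both scores above 0, 16 only the rod score and 6 only the amacrine score, and of the knockout nuclei 15, 3 and 22. The lower end of the island held 19 of 47 wild-type nuclei, or 40.4% (26.4% to 55.7%), and 6 of 40 knockout nuclei, or 15% (5.71% to 29.8%), with overlapping intervals. Within the upper end alone the median rod score was 0.22 in 28 wild-type and -0.22 in 34 knockout nuclei, whose median depths were 1224.5 and 1715.5 UMIs.

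The other amacrine clusters moved the same way by less. Their rod score was 0.05 lower in knockout than in wild-type nuclei at matched UMIs, and 0.15 lower without matching, with each of the 9 clusters lower. Their amacrine score was 0.04 higher at matched UMIs. Across the 6 of these clusters with enough nuclei to match, the rod difference ran from -0.12 to 0.11 and the amacrine difference from -0.08 to 0.22. Neither range reached the difference of cluster 15. With 1 library per genotype, whether the difference of cluster 15 exceeds that of the others was not tested.

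In cluster 12 the libraries lay close in the scores that chose it. Median horizontal scores were 0.29 in wild-type and 0.34 in knockout nuclei, and median amacrine scores 0.20 and 0.24. Only the bin from 2000 to under 4000 UMIs held enough nuclei of both libraries, 36 wild-type and 34 knockout. There the knockout horizontal score was 0.08 lower, the amacrine score 0.16 higher and the Müller glia score 0.27 higher. The Müller glia score was also 0.13 higher in knockout nuclei of the other amacrine clusters at matched UMIs, ranging from -0.09 to 0.35 among the 6 clusters that could be matched. The libraries of cluster 12 lay 0.286 units apart in the embedding, measured between median positions, and those of the other amacrine clusters 0.050 to 0.667 units apart.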

How the data were processed

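Single-nucleus RNA was measured in 1 wild-type and 1 CLRN1 knockout library, each a pool of 3 rabbits. Tools named in the submitters' processing notes are DESeq2 1.38.0, Cell Ranger 7.0 and Seurat 4.3.0, with the build OryCun2.0. How nuclei were filtered, how doublets and free RNA were handled and whether libraries were integrated: not given in the sources used here. Nuclei were not divided by animal, since that assignment was not used here. The authors deposited raw UMI counts, the mitochondrial percent of UMIs per nucleus, and module scores in the form of Seurat's module scoring. Clusters, labels and embedding coordinates (2 axes without unit) were used as deposited by the authors. Lowest UMIs of a nucleus were 499.

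Members and lists were chosen with earlier results of these data known. Libraries were taken from the authors' table. Scores were compared as differences of medians within 4 UMI bins divided at 1000, 2000 and 4000, using bins with 10 or more nuclei on each side, weighted by the smaller number. Matrix columns were joined by UMI total and detected rows. All 6315 joined nuclei had the same position in both files, and in all of them 10 rows summed exactly to the mitochondrial UMIs. List rows were found by regressing each score on log-normalised counts. Profiles are log2(CPM + 10) of summed counts over rows with 50 or more UMIs, and row ratios use the same pseudocount over rows with 50 or more UMIs on both sides together. Rows for the 4-fold sets needed 50 UMIs, own rows 20. Marker genes chosen for the check of labels were not used, as rows carry no names. By rule, 1 row number per direction is named for each cluster, the one with the largest ratio. Shares have exact Clopper-Pearson intervals, levels exact Poisson intervals and medians order-statistic intervals. Row steps were tested on simulated data. SciPy 1.17.1, scikit-learn 1.9.0, matplotlib 3.10.9, numpy 2.4.6 and pandas 2.3.3 were run under Python 3.11.15.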

Additional observations from a re-analysis of the deposited data

How the results depend on the processing

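No paired analysis was possible because each genotype has 1 library. Of 54 alternatives over 10 values, 42 planned and 12 chosen after seeing the data, 37 stayed within the interval of the value or named the same cluster. The amacrine score of cluster 15 minus that of the other amacrine clusters (0.06) was -0.092 without matching, -0.095 in the wild-type library alone and -0.043 with each nucleus paired by UMIs; it was 0.29 in the knockout library alone. The share of other amacrine nuclei among neighbours of cluster 12 (42.0% of 30) was 0% of 10, 57.8% of 100 and 14.7% in principal components, and that of cluster 15 (75.2%) was 58.7% of 10 and 62.5% in principal components. The profile most like cluster 12 (cluster 9) was cluster 2 with a pseudocount of 1 CPM, with no filter on low rows, by Spearman correlation and with means of per-nucleus shares. It was cluster 17 with thinned sums, with centred rows, with both, and with rows of 1000 or more UMIs. The profile most like cluster 15 (cluster 2) was cluster 1 only with thinned and centred rows. The log2 share ratio of cluster 15 (-0.10) was 0.23 over nuclei with 2000 or more UMIs and 0.03 over nuclei other than rods. The cause of these changes was not tested. The sums of 287553 and 168906 UMIs limit rows with few counts: a row with no UMI may reach 10.4 CPM in cluster 12 and 17.8 in cluster 15.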
